A study of Mus musculus with 3 samples.

Results

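The 10 genes of glucose uptake and glycolysis examined here were taken by their symbols from the gene table of the deposited matrices: Slc2a1, Slc2a3, Hk2, Pfkp, Aldoa, Pgk1, Eno1, Pkm, Ldha and Pdk1. They are 10 of 31054 features, and their unique molecular identifiers (UMIs, each a single captured transcript) were compared across cell classes that were set by the UMIs of other genes. The samples were single-cell suspensions of 3 wildtype male mouse embryos of mixed C57BL/6 and 129 SvEv background, collected at E8.0, at the onset of somite formation, with the extraembryonic tissue removed and the cells separated with TrypLE. Each embryo was 1 droplet library (10x Genomics, 3′ chemistry v3), no embryo was treated, and all belong to a single group. The comparisons were therefore made between cell classes across these embryos. Their p-values rest on the spread between embryos of the same class, pooled over the 14 classes. In the main test, UMIs summed per class and embryo were treated as independent, also those from the same embryo. Erythroid-like cells rest on 2 embryos.

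Glucose enters cells through transporters of the SLC2A family and is trapped by hexokinase, committed to glycolysis by phosphofructokinase, split by aldolase and carried on to pyruvate. Pyruvate is then reduced to lactate by lactate dehydrogenase or enters the mitochondrion, where pyruvate dehydrogenase kinases restrain its oxidation. In the gastrulating and early somite embryo, glucose use is known to differ between tissues, the tail end and its presomitic mesoderm being the best described site of graded glycolysis, and several of these genes are textbook targets of the hypoxia-inducible factors.

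The promoters of members whose level varied most and least between classes are shown first, since the core of the hypoxia response element (ACGTG or GCGTG) was searched in them on both strands. The windows are the 250 bases before a RefSeq transcription start of GRCm38, written 5′ to 3′ on the strand of the gene, and capitals mark a match (CACGT and CACGC are the reverse complements, and the palindrome CACGTG holds ACGTG on both strands). Bases of an annotated exon were left off the 3′ end, except 3 bases of Slc2a1 that a match reached into. The members with the widest range of levels were Slc2a1 and Pfkp among those with a window, and those with the narrowest were Hk2 and Ldha.
Slc2a1, chr4:119108495-119108713 (plus strand): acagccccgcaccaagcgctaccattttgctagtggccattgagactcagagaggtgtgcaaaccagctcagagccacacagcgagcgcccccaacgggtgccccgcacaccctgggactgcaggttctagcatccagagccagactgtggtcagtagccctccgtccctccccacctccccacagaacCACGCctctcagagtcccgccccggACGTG
Pfkp, chr13:6648778-6649021 (minus strand): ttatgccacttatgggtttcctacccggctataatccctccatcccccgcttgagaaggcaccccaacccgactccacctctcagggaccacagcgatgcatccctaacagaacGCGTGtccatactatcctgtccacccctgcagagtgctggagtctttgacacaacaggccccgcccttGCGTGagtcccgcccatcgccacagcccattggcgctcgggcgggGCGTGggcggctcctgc
Hk2, chr6:82774455-82774704 (minus strand): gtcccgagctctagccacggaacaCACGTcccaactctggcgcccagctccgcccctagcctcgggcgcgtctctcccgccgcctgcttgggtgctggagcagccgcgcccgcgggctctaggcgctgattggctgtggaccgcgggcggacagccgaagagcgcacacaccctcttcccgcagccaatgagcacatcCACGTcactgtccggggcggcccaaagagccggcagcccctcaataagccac
Ldha, chr7:46845554-46845803 (plus strand): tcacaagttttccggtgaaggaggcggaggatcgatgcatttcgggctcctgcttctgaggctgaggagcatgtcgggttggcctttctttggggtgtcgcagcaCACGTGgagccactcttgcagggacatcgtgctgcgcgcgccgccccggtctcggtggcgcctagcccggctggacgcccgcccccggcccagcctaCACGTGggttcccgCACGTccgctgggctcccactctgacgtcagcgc

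Of the 10 members, 9 matched the promoter table (all but Slc2a3), with 16 windows between them. ACGTG lay in a window of 6 members, GCGTG in a window of 5, and either in a window of each of the 9, or in 13 of the 16 windows. Members had up to 3 windows each, and 2 windows of Aldoa and 2 of Eno1 overlapped and held the same matches, so the windows are not separate cases. Of 32851 promoters of the same length, 16.6% held ACGTG, 28.2% held GCGTG and 38.6% held either, counted per promoter, which is not the same measure as the count per member. Both kinds of promoter shown, those of members with wide and with narrow ranges, held matches. A match is only a stretch of letters in the window and no measure of binding.

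The matrices held 23533 barcodes, of which 21595 passed the limits on genes and mitochondrial UMIs, with 5795, 7956 and 7844 cells and a median of 27635, 14615 and 16332 UMIs per cell in embryos 1, 2 and 3. The limits on marker UMIs, which were set after the marker UMIs alone had been seen, put 17407 cells (80.6%) in 14 classes and left 4188 in none. The classes are called neural plate-like, caudal epiblast-like, presomitic mesoderm-like, somitic and paraxial mesoderm-like, cardiac-like, erythroid-like, endothelium-like, visceral endoderm-like, definitive endoderm-like, surface ectoderm-like, allantois-like, mesenchyme-like, left-right organizer-like and axial mesoderm-like. Neural plate-like cells were set by Sox2, Sox1, Pou3f1, Otx2, Six3 and Hesx1. Of these, Otx2, Six3 and Hesx1 are anterior markers, so that class leans to the anterior neural plate. Markers that took no part in setting the classes were fixed for 10 of them, and these were highest in their own class for 5 of 5 in erythroid-like and visceral endoderm-like cells, 4 of 4 in somitic and paraxial mesoderm-like, 4 of 5 in cardiac-like, 3 of 4 in caudal epiblast-like and endothelium-like cells. They were highest for only 2 of 4 in neural plate-like, presomitic mesoderm-like, definitive endoderm-like and surface ectoderm-like cells (Cited1, for example, was at 602 CPM in presomitic mesoderm-like and 1127 in visceral endoderm-like cells, CPM being the UMIs of a gene in 1000000 UMIs of a class), so those names rest mostly on the markers that set them. Krt18 and Epcam were fixed for both definitive endoderm-like and surface ectoderm-like cells, so neither could be highest in both. Both were highest in definitive endoderm-like cells, and they are the markers that failed for surface ectoderm-like cells. UMIs were summed per class and embryo, which gave 41 sums of 974256 to 25759025 UMIs from 49 to 1210 cells. Erythroid-like cells were compared in embryos 2 and 3 only (892 and 332 cells), because embryo 1 held 2 of them. Visceral endoderm-like cells numbered 279, 1210 and 961 in embryos 1, 2 and 3, although the extraembryonic tissue had been removed. How far these classes come from remnants of that tissue was not tested. Few barcodes were shared between libraries (22, 18 and 19 for the 3 pairs of embryos). A level is given below in CPM, so it is a share of the captured transcripts and not an amount per cell. Levels of different genes are not compared with each other, because capture at the 3′ end differs from gene to gene. Where levels of several genes are summed below, a gene that is captured more readily weighs more in the sum.

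**Figure D1:**
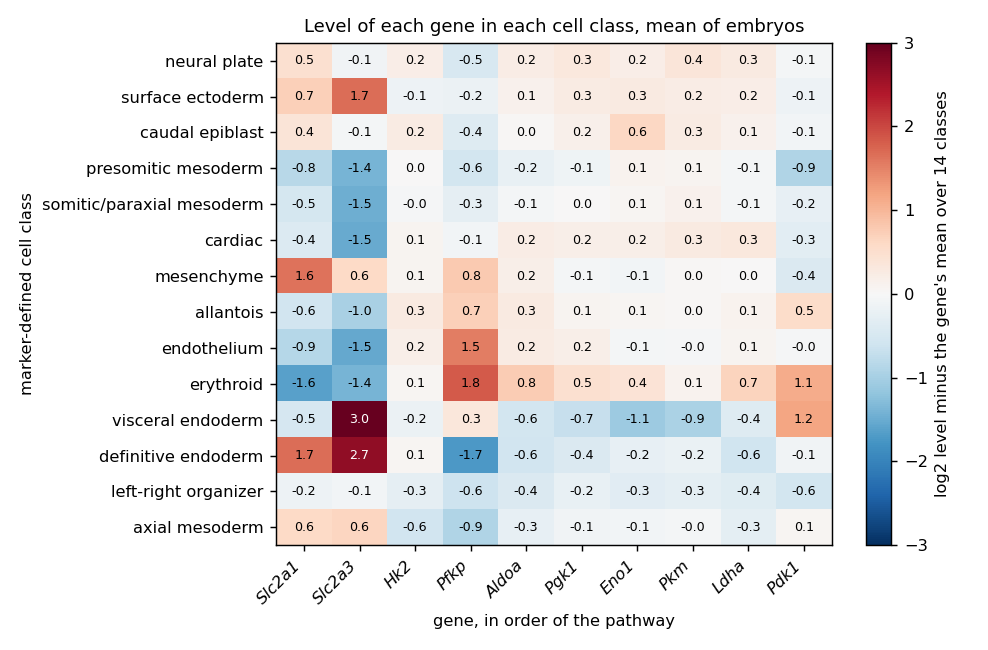
Level of each member (columns) in each of the 14 cell classes (rows), as the log2 of the scaled level minus the mean of that gene over the classes. Red is above and blue below the gene's mean. Slc2a3 reached from 2.99 in visceral endoderm-like to -1.53 in endothelium-like cells, whereas Hk2 stayed between -0.56 and 0.27.

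All 10 members differed among the 14 classes in edgeR's quasi-likelihood test with Benjamini-Hochberg adjustment, and so did 93.1% of the 14589 genes tested, so this count alone does not set the members apart. The adjusted p was 0.0323 for Hk2 and at most 1.36e-12 for the other members. Slc2a3 ranked 14th and Slc2a1 164th of the genes by the size of this F statistic, while Hk2 ranked 13439th. The ratio of the highest to the lowest class mean was 22.3 for Slc2a3, 12.7 for Slc2a1 and 9.65 for Pfkp. It was 3.81 for Eno1, 3.72 for Pdk1, 2.86 for Pkm, 2.34 for Aldoa, 2.31 for Pgk1, 1.94 for Ldha and 1.72 for Hk2. The wide ratios move with the low end: with clusters in place of marker limits Slc2a3 was at 38.7 CPM in somitic and paraxial mesoderm-like cells (121 with the limits), below the 102 of erythroid-like cells, and with cells thinned to 5000 UMIs Pfkp was at 1.52 in definitive endoderm-like cells, its lowest class (3.01 without thinning).

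Slc2a1 (ENSMUSG00000028645, GRCm38 chr4:119108711-119137983) encodes GLUT1, the widespread basal glucose transporter. It was highest in definitive endoderm-like cells, with 1210, 1058 and 996 CPM in embryos 1, 2 and 3, and in mesenchyme-like cells, with 1015, 1059 and 960. These classes overlapped each other, and the highest embryo of any other class had 575, in axial mesoderm-like cells. Neural plate-like cells had 468, 428 and 461, and caudal epiblast-like cells 440, 453 and 415, whereas presomitic mesoderm-like cells had 178, 176 and 205. Visceral endoderm-like cells, at 232, 181 and 188, lay near presomitic mesoderm-like and endothelium-like cells (202, 156 and 186). The lowest levels were those of erythroid-like cells, at 82.4 and 89.0 in embryos 2 and 3. Cardiac-like, somitic and paraxial mesoderm-like, allantois-like, visceral endoderm-like, presomitic mesoderm-like and endothelium-like cells formed a run in which each class overlapped the next.

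Slc2a3 (ENSMUSG00000003153, chr6:122727809-122801640) encodes GLUT3, a transporter of high affinity that neurons and the early embryo rely on. Visceral endoderm-like cells held 2573, 2044 and 2208 CPM, and definitive endoderm-like cells 2491, 1948 and 2024. The endoderm classes overlapped each other and stood above surface ectoderm-like cells, which had 1153, 1030 and 981 and in turn stood above all the rest. Axial mesoderm-like (547 ± 99.8) and mesenchyme-like cells (498 ± 77.1) came next, and then left-right organizer-like, caudal epiblast-like and neural plate-like cells, which overlapped at 335 ± 16.7, 318 ± 35.4 and 307 ± 10.7 (SD, n = 3 each). Presomitic mesoderm-like, somitic and paraxial mesoderm-like, cardiac-like, endothelium-like and erythroid-like cells were lowest and overlapped from neighbour to neighbour, with means from 127 down to 102. With clusters in place of marker limits these means fell to 50.6 in presomitic mesoderm-like, 38.7 in somitic and paraxial mesoderm-like and 60.9 in cardiac-like cells, so the order among these low classes depends on how the classes were set. The transporters thus had partly different orders: visceral endoderm-like cells were first for Slc2a3 and 11th for Slc2a1, and mesenchyme-like cells were second for Slc2a1 and 5th for Slc2a3. Their levels summed to 3242 ± 397 in definitive endoderm-like cells, 2475 ± 298 in visceral endoderm-like cells (SD, n = 3) and 187.7 ± 24.2 in erythroid-like cells (n = 2).

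**Figure D2:**
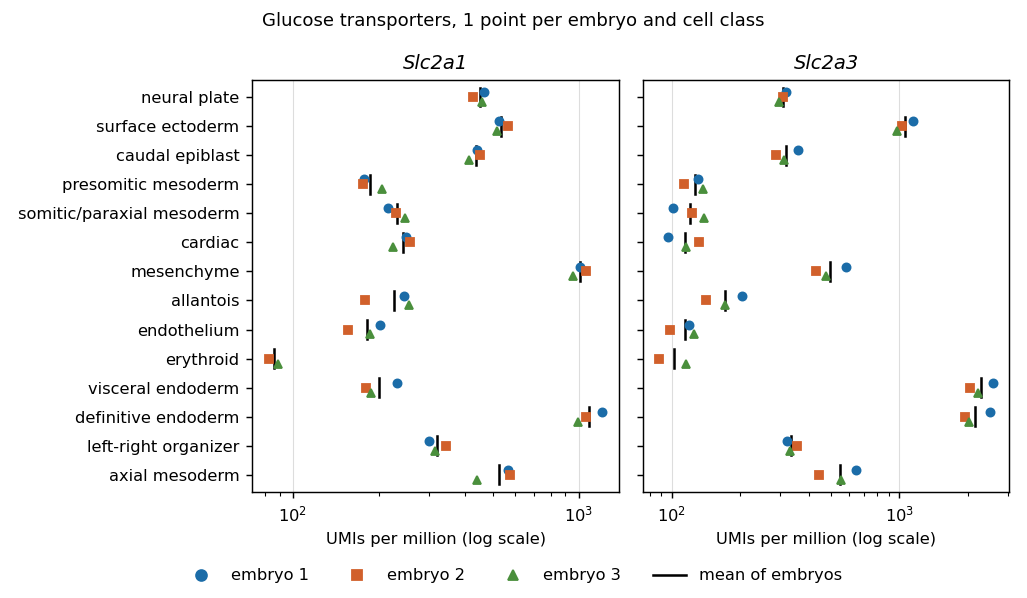
CPM of Slc2a1 and Slc2a3 (horizontal axes) in each cell class (vertical axis), with a point per embryo and a line at the mean of the embryos. Definitive endoderm-like cells were high for both transporters, mesenchyme-like cells stood out for Slc2a1 only (960 to 1059), and visceral endoderm-like cells for Slc2a3 only (2044 to 2573).

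Hk2 (ENSMUSG00000000628, chr6:82725025-82774454) encodes the inducible hexokinase that phosphorylates glucose on entry. Axial mesoderm-like cells had its lowest class mean, 47.0 ± 9.57 CPM, and allantois-like cells its highest, 80.8 ± 13.8 (SD over 3 embryos), and every class overlapped its neighbour in this order. In neural plate-like cells the embryos gave 83.2, 62.7 and 80.0, and in visceral endoderm-like cells 57.0, 38.1 and 54.9. Embryo 2 gave the lowest Hk2 value in each class but the left-right organizer-like class, so that the embryos differed in the same way in most classes. The median coefficient of variation between embryos was 15.9% for Hk2, against 3.56% for Ldha and 4.49% for Aldoa. In the test without an embryo term, Hk2 had a single call against the mean of the other classes, in axial mesoderm-like cells. The log2 fold change there was -0.58 ± 0.19 (SE, edgeR adjusted p = 0.0276). That call was lost without embryo 1 (adjusted p = 0.16) or embryo 3 (0.105). It was also lost with cells thinned to 5000 UMIs (0.348) and with total UMIs as the only scaling (0.0927). With the embryo as a block, Hk2 was also called higher in neural plate-like (log2 0.22, adjusted p = 0.000441), caudal epiblast-like (0.25, 0.000209), endothelium-like (0.19, 0.00572) and allantois-like cells (0.29, 5.41e-05). With that block it was called lower in visceral endoderm-like (-0.21, 0.000788), left-right organizer-like (-0.25, 0.0125) and surface ectoderm-like cells (-0.16, 0.0376). The largest of these blocked differences was 0.29 on the log2 scale.

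Pfkp (ENSMUSG00000021196, chr13:6579768-6648777) encodes the platelet-type isoform of phosphofructokinase, the committed step. It was sparse, with 4482 UMIs in all sums together, and it was highest in the blood and vessel classes: erythroid-like cells had 26.9 and 31.2 CPM in embryos 2 and 3, and endothelium-like cells 28.5, 29.2 and 28.8. Mesenchyme-like (18.7, 16.3 and 15.7) and allantois-like cells (20.5, 14.3 and 15.2) followed without overlapping them. Definitive endoderm-like cells were lowest, at 2.01, 3.06 and 3.95, a rate that rested on few UMIs. The other classes lay between 2.89 and 12.1 in single embryos and overlapped from neighbour to neighbour.

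Pdk1 (ENSMUSG00000006494, chr2:71873224-71903858) encodes a kinase that inactivates pyruvate dehydrogenase and so keeps pyruvate out of the citric acid cycle. Visceral endoderm-like cells had 26.6, 31.9 and 32.3 CPM and erythroid-like cells 25.9 and 28.1, which overlapped. Allantois-like cells came next at 22.2, 23.5 and 22.8. Presomitic mesoderm-like cells were lowest, at 7.58, 8.65 and 8.17, and their embryos lay below all embryos of the other classes except embryo 1 of the left-right organizer-like class, at 7.14. In that class Pdk1 spread from 7.14 to 15.6.

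**Figure D3:**
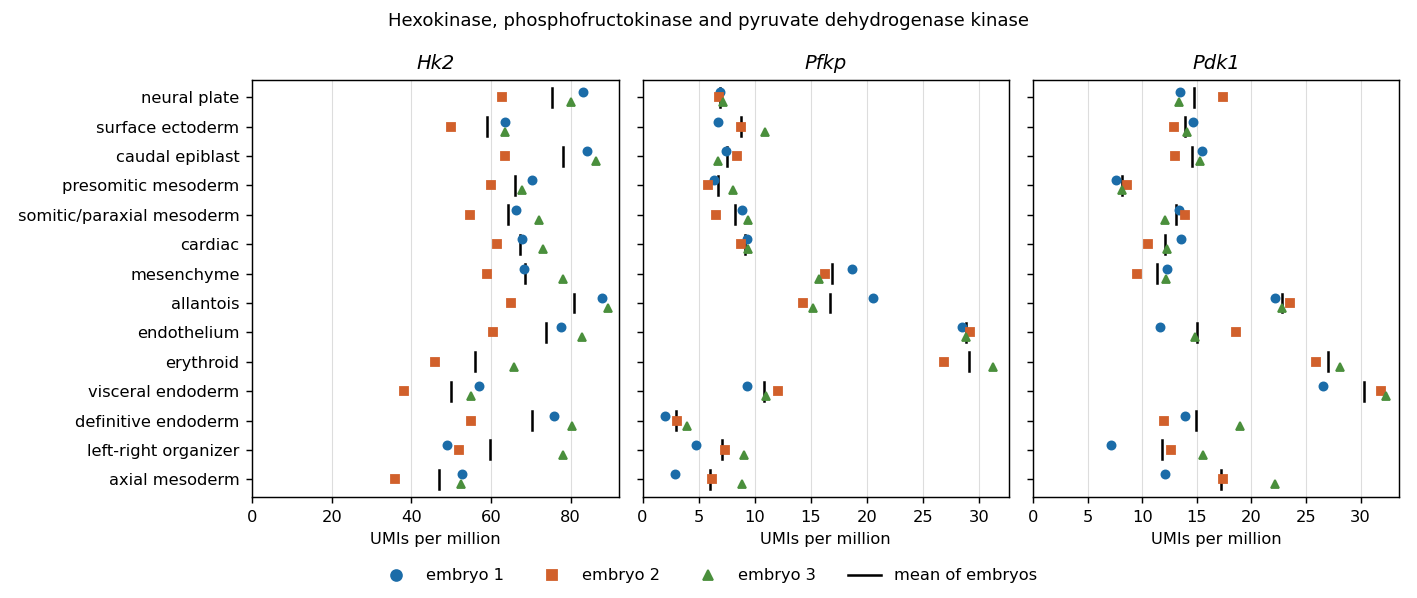
CPM of Hk2, Pfkp and Pdk1 (horizontal axes) by cell class, with a point per embryo and a line at the mean. Pfkp stood out in erythroid-like and endothelium-like cells (26.9 to 31.2), Pdk1 in visceral endoderm-like, erythroid-like and allantois-like cells (22.2 to 32.3), and for Hk2 embryo 2 was lowest in most classes.

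Aldoa, Pgk1, Eno1, Pkm and Ldha encode aldolase A, phosphoglycerate kinase, enolase, pyruvate kinase and the A subunit of lactate dehydrogenase, the abundant enzymes of the lower pathway. Summed over these 5 genes, the level was 7165 ± 482 CPM in neural plate-like and 7125 ± 509 in caudal epiblast-like cells, and 3172 ± 62.9 in visceral endoderm-like cells (SD, n = 3 each). Definitive endoderm-like cells had 4620 ± 264 and left-right organizer-like cells 5104 ± 386, and the other classes lay between 5595 and 6907. Visceral endoderm-like cells had the lowest mean CPM for each of these 5 genes. After TMM scaling, definitive endoderm-like cells were lowest for Aldoa and Ldha, so their lowest class depends on the scaling. As scaled log2 level minus the gene's mean over the classes, Aldoa was at -0.57 in definitive and -0.55 in visceral endoderm-like cells. Ldha was at -0.60 and -0.39.

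Aldoa (ENSMUSG00000030695, chr7:126795234-126800751) was at 398, 452 and 400 in visceral endoderm-like and 477, 501 and 491 in definitive endoderm-like cells, against 959 and 996 in erythroid-like cells. Pgk1 (ENSMUSG00000062070, chrX:106187100-106203699) was at 401, 361 and 359 in visceral endoderm-like cells and at 903, 873 and 818 in neural plate-like cells, its highest class. Ldha (ENSMUSG00000063229, chr7:46841475-46855627) fell into a low pair, visceral endoderm-like (1277, 1274 and 1229) and definitive endoderm-like cells (1311, 1327 and 1256), and a range of 1444 to 2473 elsewhere. For these genes the endoderm classes lay below every embryo of every other class in CPM. Pgk1 of the highest 7 classes, from neural plate-like to allantois-like cells, overlapped from neighbour to neighbour and was not ordered by these embryos.

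Eno1 (ENSMUSG00000063524, chr4:150236721-150248879) was highest in caudal epiblast-like cells, at 1571, 1866 and 1448, which lay above all embryos of the other classes. Embryo 2 gave the highest Eno1 level in each class but the erythroid-like class. Visceral endoderm-like cells had 420, 446 and 417, less than any embryo of another class, the nearest being definitive endoderm-like embryo 1 at 835. Pkm (ENSMUSG00000032294, chr9:59656368-59679375) had the same lowest class, at 663, 707 and 711, and was highest in neural plate-like cells, at 2005, 2198 and 1758. The UMIs of Eno1 may include some of Eno1b, a near-identical copy that carried 1.04% to 1.61% as many UMIs as Eno1 in the 41 sums. A second feature named Aldoa (ENSMUSG00000114515) held 24 UMIs in all and was not added.

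**Figure D4:**
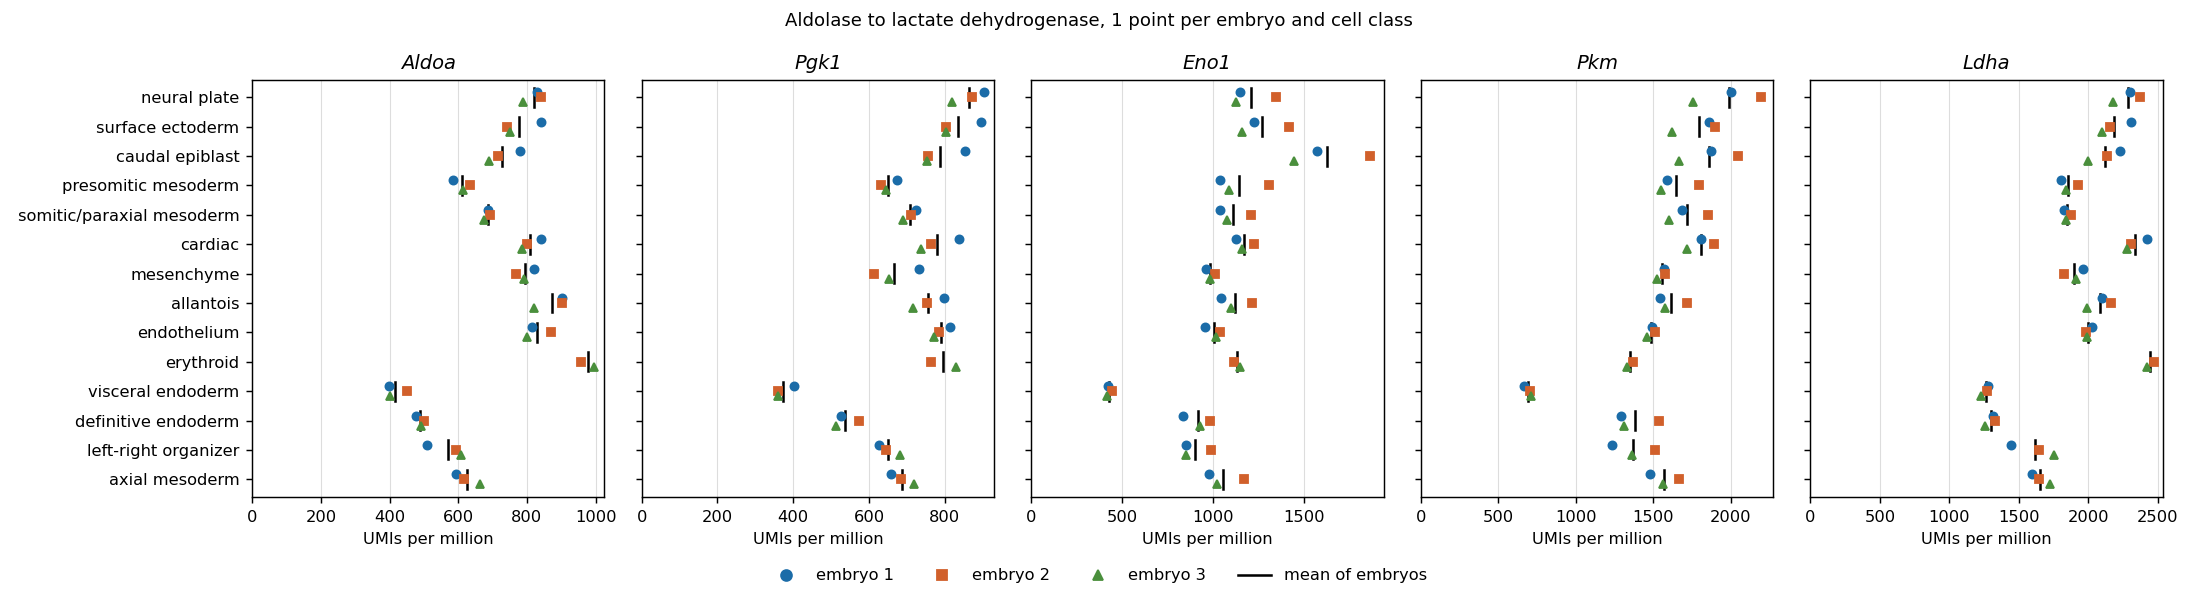
CPM of Aldoa, Pgk1, Eno1, Pkm and Ldha by cell class, with a point per embryo and a line at the mean of the embryos. Visceral endoderm-like cells had the lowest mean CPM for each gene (417 for Aldoa and 1260 for Ldha), overlapping definitive endoderm-like cells for Ldha. Caudal epiblast-like cells stood above the rest for Eno1 (1448 to 1866).

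Each class was next compared with the mean of the other 13 classes. These comparisons share their sums and are not independent of each other. The mean was taken over log2 levels (a geometric mean), so a fold is not the ratio to the plain mean CPM of the other classes. In plain means, Slc2a3 was at 2275 CPM in visceral endoderm-like cells against 459 over the other classes. In erythroid-like cells it was at 102 against 626. Fold changes are given after TMM scaling, whose factors were 0.794 to 0.841 in erythroid-like, 0.847 to 0.904 in visceral endoderm-like and 0.979 to 1.139 in the other sums. With total UMIs as the only scaling, the median log2 fold change of all genes moved from -0.14 to -0.45 in erythroid-like and from -0.05 to -0.26 in visceral endoderm-like cells against the other classes, and from 0.01 to 0.15 in left-right organizer-like cells, so fold changes there are relative to that shift. The median log2 fold change of the 10 members was 0.48 in erythroid-like cells (-0.14 over all genes tested), 0.23 in neural plate-like (-0.02), 0.22 in surface ectoderm-like (-0.01), 0.15 in caudal epiblast-like (-0.01) and 0.13 in cardiac-like cells (-0.01). It was -0.18 in presomitic mesoderm-like (-0.01), -0.24 in definitive endoderm-like (0.01), -0.33 in left-right organizer-like (0.01) and -0.48 in visceral endoderm-like cells (-0.05), and between -0.10 and 0.09 in the other 5 classes.

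Visceral endoderm, the outer layer that absorbs nutrients for the embryo, is represented by a class in which 9 of the 10 members were called. In visceral endoderm-like cells Slc2a3 was 9.3-fold higher (log2 3.22 ± 0.07 SE, edgeR adjusted p = 1.14e-30, higher in 3 of 3 embryos) and Pdk1 2.44-fold higher (1.29 ± 0.10, adjusted p = 1.61e-13). Eno1 was at 0.444 of the mean of the other classes (-1.17 ± 0.08, 4.86e-15), Pkm at 0.496 and Pgk1 at 0.594, and Aldoa, Ldha and Slc2a1 were lower too. Of the members, 3 were called higher, where 37.0% of genes tested were, and 6 lower, where 35.5% were. The call for Pfkp (log2 0.40, edgeR adjusted p = 0.00544) was lost without embryo 2 (0.232) and with clusters in place of marker limits (0.0524). It was also lost with total UMIs as the only scaling (log2 0.18, 0.191). In plain means Pfkp was at 10.8 CPM against 11.9 over the other classes. The other 8 calls held under each of the 13 alternatives. These cells also had the highest median mitochondrial share, 5.77% to 7.29% against 2.37% to 4.79% in the other sums, and the lowest ribosomal protein gene share, 17.1% to 18.3% against 19.8% to 24.6%. The part of these shares in the result was not tested.

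In definitive endoderm-like cells, the future gut lining, both transporters were higher, Slc2a3 7.25-fold (log2 2.86 ± 0.07, adjusted p = 1.62e-27) and Slc2a1 3.5-fold (1.81 ± 0.06, 2.14e-23; edgeR). A further 6 members were lower, Pfkp at 0.252 of the mean of the other classes (-1.99 ± 0.19, 5.41e-11), Ldha at 0.637, Aldoa at 0.651, Pgk1 at 0.725, Eno1 at 0.831 and Pkm at 0.859. The background was 25.7% of genes called higher and 19.4% lower, against 2 and 6 of the 10 members. The call for Pkm was lost without embryo 1 (edgeR adjusted p = 0.0673) or embryo 3 (0.0536), and with thinned cells (0.0538). Of 6 genes that respond to dissociation, 3 were called higher in these cells, among them Egr1 9.38-fold and Fos 3.93-fold, and whether that touched the members was not tested.

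Erythroid-like cells, the primitive red cells, had both transporters called lower and 6 enzymes called higher, but neither Hk2 nor Pkm was called higher. In CPM, Hk2 averaged 55.9 and Pkm 1351 in these cells, against 66.2 and 1580 over the other classes. Slc2a1 was at 0.294 (log2 -1.76 ± 0.11, edgeR adjusted p = 3.23e-16) and Slc2a3 at 0.349 of the mean of the other classes, in 2 of 2 embryos. Pfkp was 3.99-fold higher (2.00 ± 0.13, 2.9e-15), Pdk1 2.28-fold, Aldoa 1.78-fold, Ldha 1.64-fold, Pgk1 1.44-fold and Eno1 1.35-fold. That made 6 members higher and 2 lower, with 30.5% and 34.0% of genes called in these directions. The number called was 8 under each alternative, of which those without embryo 2 or 3 leave a single erythroid-like sum and take the spread from the other classes; but with total UMIs as the only scaling Eno1 was no longer called (log2 0.13, adjusted p = 0.168), and Pkm turned from 0.12 to -0.18 (adjusted p = 0.0327). Hbb-bh1, an embryonic globin and a gauge of free RNA in the droplets, was at 0 outside the erythroid-like class in embryo 1, at 17.1 to 68.8 CPM in embryo 2 and at 1.77 to 14.2 in embryo 3. Embryo 1 held only 2 erythroid-like cells as a source of this RNA, so the value of 0 cannot gauge free RNA in that library.

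In neural plate-like cells 6 members were higher and 1 lower, where 18.6% and 19.4% of genes were called. The higher ones were Slc2a1 (1.42-fold), Pkm (1.32-fold), Pgk1 (1.26-fold), Ldha (1.22-fold), Aldoa (1.18-fold) and Eno1 (1.17-fold, edgeR adjusted p = 0.0159, lost without embryo 3 at 0.0819). Pfkp was at 0.689 (adjusted p = 0.00197). In caudal epiblast-like cells, the progenitors at the tail end, Eno1 was 1.58-fold higher (log2 0.66 ± 0.07, adjusted p = 1.71e-09), Slc2a1 1.34-fold and Pkm 1.21-fold, and these 3 calls held under each alternative. Pgk1 (1.12-fold) and Ldha (1.11-fold) were called higher and Pfkp (0.74) lower, which made 5 and 1 members against 15.1% and 15.3% of genes. Without embryo 2 only the first 3 were called. Pgk1 and Ldha were also lost without embryo 1 (edgeR adjusted p = 0.058 and 0.135). Pfkp was lost without embryo 3 (0.351) and with thinned cells (0.168). For Slc2a3, which was not called in either class, clusters of cells in place of marker limits turned the sign, to log2 0.35 in neural plate-like (from -0.11; adjusted p = 0.00215) and 0.41 in caudal epiblast-like cells (from -0.08; 0.000615).

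In presomitic mesoderm-like cells, from which somites form, no member was called higher and 6 were called lower, where 13.9% and 13.2% of genes were. Slc2a3 was at 0.353 of the mean of the other classes (log2 -1.50 ± 0.11, edgeR adjusted p = 2.24e-13), Pdk1 at 0.49 (-1.03 ± 0.15, 1.3e-06), Slc2a1 at 0.537 (-0.90 ± 0.08, 6.33e-11), Pfkp at 0.658, Aldoa at 0.848 and Pgk1 at 0.913. The call for Pfkp was lost without embryo 2 (0.0879), and that for Pgk1 without any one of the embryos (0.114, 0.31 and 0.146). Eno1, Pkm and Ldha had log2 fold changes of 0.12, 0.09 and -0.06 that did not pass, although Eno1 did with the embryo as a block (0.11, adjusted p = 0.00843). In cardiac-like cells 4 members were higher and 2 lower, where 13.0% and 8.54% of genes were called. Ldha was 1.27-fold (adjusted p = 5.49e-07), Pkm 1.21-fold, Aldoa 1.18-fold and Pgk1 1.15-fold higher, and Slc2a3 was at 0.325 (3.6e-14) and Slc2a1 at 0.74. Without embryo 1, Pgk1 (adjusted p = 0.0757) and Pkm (0.0617) were lost, and Pgk1 also without embryo 2 (0.054). Eno1, at log2 0.20 with an adjusted p of 0.0534, was called with the embryo as a block (1.06e-05).

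Among the other mesoderm classes, somitic and paraxial mesoderm-like cells had 2 members called, Slc2a1 (0.676) and Slc2a3 (0.333), both lower, where 26.7% of genes were called in either direction. The embryo as a block added Pkm (log2 0.15, edgeR adjusted p = 0.0017) and Pdk1 (-0.26, 0.0357) and so took the count to 4. Endothelium-like cells had 5 (background 42.0%), with Pfkp 3.2-fold (adjusted p = 1.93e-14), Aldoa 1.2-fold and Pgk1 1.15-fold higher and Slc2a3 (0.32) and Slc2a1 (0.532) lower; Pgk1 was lost without embryo 2 (0.0511). Allantois-like cells had 5 (background 32.1%), with Pfkp 1.71-fold, Pdk1 1.49-fold and Aldoa 1.23-fold higher and Slc2a3 (0.481) and Slc2a1 (0.652) lower. There the sign of Slc2a1 turned with clusters in place of marker limits, to log2 0.04 (edgeR adjusted p = 0.803). With clusters the call for Pdk1 was lost too (log2 0.30, 0.0695), and the block added Ldha (0.10, 0.0329). Mesenchyme-like cells had 5 (background 30.6%), with Slc2a1 3.38-fold (log2 1.76 ± 0.06, 1.1e-22), Pfkp 1.79-fold, Slc2a3 1.56-fold and Aldoa 1.14-fold higher and Pdk1 lower (0.725). The higher Slc2a3 holds against the mean of log2 levels only, its plain mean being 498 CPM in mesenchyme-like cells and 595 over the other classes. Without embryo 2, Aldoa (edgeR adjusted p = 0.0534) and Pdk1 (0.157) were lost in mesenchyme-like cells. Pdk1 was lost without embryo 3 (0.081), and the block added Eno1 (-0.09, 0.0447).

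Surface ectoderm-like cells, the future epidermis, had 7 members called, all higher, where 23.0% of genes were called in either direction. Slc2a3 was 3.48-fold higher (edgeR adjusted p = 1.73e-19), Slc2a1 1.7-fold, Eno1 1.22-fold, Pgk1 1.21-fold, Pkm 1.18-fold, Ldha 1.16-fold and Aldoa 1.11-fold. Aldoa was lost without any one of the embryos (adjusted p = 0.428, 0.0881 and 0.143), and Pkm without embryo 1 (0.151). Left-right organizer-like cells, the ciliated cells that set the left and right sides, had 7 called, all lower, where 36.7% of genes were called in either direction. These members were Pdk1 (0.708), Pfkp (0.661), Aldoa (0.732), Ldha (0.77), Eno1 (0.775), Pkm (0.812) and Pgk1 (0.852). Pfkp and Pdk1 were lost there without embryo 1 (0.18 and 0.399) or embryo 2 (0.159 and 0.108), and both were also lost with DESeq2 size factors, the DESeq2 Wald test, total UMIs as the only scaling and thinned cells, with which Pfkp went from log2 -0.60 to -0.06 (0.974). Pgk1 was lost with total UMIs as the only scaling (-0.09, 0.176), and Pdk1 also with clusters (0.138). Neither transporter was called in the main fit. Slc2a1 (log2 -0.17, edgeR adjusted p = 0.106) was called lower without a filter on low counts (0.0307), with stricter limits (0.0253) and with thinned cells (-0.36, 0.00626). All 6 proliferation genes were lower in left-right organizer-like cells (median log2 -0.52, against 0.01 for all genes), a change whose part in the result was not tested. Axial mesoderm-like cells had 6 called, where 17.8% of genes were called in either direction. Slc2a3 was 1.62-fold and Slc2a1 1.57-fold higher, and Pfkp (0.507), Hk2 (0.669), Ldha (0.808) and Aldoa (0.825) were lower. For Slc2a3 this holds against the mean of log2 levels only. Its plain mean was 547 CPM in axial mesoderm-like cells and 592 over the other classes. Without embryo 1 or 2 Pfkp was lost in axial mesoderm-like cells (edgeR adjusted p = 0.299 and 0.122), and without embryo 2 Aldoa (0.0518). Pfkp was also lost there with thinned cells (0.327).

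Pairs of related classes were compared directly. Between caudal epiblast-like and neural plate-like cells, 1 member was called, where 11.6% of genes were: Eno1 was 1.33-fold higher in caudal epiblast-like cells (log2 0.41 ± 0.10, edgeR adjusted p = 0.00435, in 3 of 3 embryos), and the call was lost without embryo 3 (0.0749). The embryo as a block added Aldoa (-0.19, 0.0272) and Pgk1 (-0.16, 0.0322), which were lower in caudal epiblast-like cells. From caudal epiblast-like to presomitic mesoderm-like cells, the step at which mesoderm leaves the progenitor zone, 6 members were higher in the former and 0 lower, where 4.09% and 4.33% of genes were. Slc2a3 was 2.5-fold (1.32 ± 0.13, 4.65e-09), Slc2a1 2.34-fold (1.22 ± 0.10, 1.1e-10), Pdk1 1.83-fold (0.87 ± 0.19, 0.00132) and Eno1 1.42-fold (0.51 ± 0.10, 0.000634) higher in caudal epiblast-like cells, and these held under each alternative.

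The smaller differences between those classes were less stable. Pgk1 was 1.21-fold and Aldoa 1.19-fold higher in caudal epiblast-like than in presomitic mesoderm-like cells, and Aldoa was lost without any one of the embryos (edgeR adjusted p = 0.354, 0.155 and 0.0904) and Pgk1 without embryo 1 or 2 (0.059 and 0.125). The block added Hk2 (log2 0.24, 0.0273), Pkm (0.18, 0.019) and Ldha (0.19, 0.0127), each higher in caudal epiblast-like cells. Between presomitic mesoderm-like and somitic and paraxial mesoderm-like cells, 1 member was called, where 8.21% of genes were: Pdk1 was at 0.614 in presomitic mesoderm-like cells (-0.70 ± 0.18, 0.00891), and the call was lost without any one of the embryos (0.105, 0.0725 and 0.0653). Slc2a1, at log2 -0.31 with an adjusted p of 0.0619, was called with the block (0.0178), without a filter on low counts, with stricter limits, with thinned cells and with barcodes of low mitochondrial percent kept, and with clusters it was at -0.95 (1.49e-07). Slc2a3, at 127 and 121 CPM, had a log2 fold change of 0.08 ± 0.13 between them. With clusters, Aldoa (log2 -0.40, edgeR adjusted p = 7.32e-05) and Pgk1 (-0.33, 0.000656) were also called lower in presomitic mesoderm-like cells. Of the cells in the presomitic mesoderm cluster, 42.6% were in the marker class of that name.

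Visceral endoderm-like against definitive endoderm-like cells compares layers of different origin that come to lie side by side. In visceral endoderm-like cells 4 members were higher and 4 lower, where 31.2% and 30.6% of genes were. Slc2a1 was at 0.219 (log2 -2.19 ± 0.11, edgeR adjusted p = 4.88e-19), Eno1 at 0.559 (-0.84 ± 0.10, 8.04e-09) and Pkm at 0.601 (-0.73 ± 0.09, 1.39e-08) of the definitive endoderm-like level, and Pfkp was 4.64-fold (2.21 ± 0.22, 5.72e-11) and Pdk1 2.47-fold (1.30 ± 0.16, 1.48e-08) higher. These 5 calls held under each alternative. Slc2a3 was 1.26-fold higher (0.33 ± 0.13, 0.0242), but this was lost without embryo 2 (0.0659) or embryo 3 (0.178). It was also lost with stricter limits (0.0963), with thinned cells (0.0505) and with total UMIs as the only scaling (log2 0.08, 0.634). Before TMM scaling the Slc2a3 means were 2275 and 2154 CPM, and the embryos of these classes overlapped. Without embryo 2, Pgk1 (-0.27, to 0.0723) and Ldha (0.21, to 0.106) were lost too, and the block added Hk2 (-0.25, 0.00392). With total UMIs as the only scaling, which moved the median of all genes from -0.02 to -0.28, Ldha turned to -0.04 (0.517) and Aldoa from 0.03 to -0.23 (0.00238).

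Erythroid-like cells against endothelium-like cells, both descended from blood and vessel progenitors, had 5 members higher and 1 lower, where 24.5% and 27.9% of genes were. Pdk1 was 2.23-fold (log2 1.16 ± 0.19, edgeR adjusted p = 2.75e-06), Ldha 1.5-fold (0.58 ± 0.07, 3.01e-08), Aldoa 1.44-fold, Eno1 1.38-fold and Pgk1 1.23-fold higher in erythroid-like cells. Slc2a1 was at 0.577 (-0.79 ± 0.12, 1e-06). Pfkp, high in both, had a log2 fold change of 0.29 ± 0.18 (0.177). The call for Pgk1 was lost without embryo 3 (0.0623), where a single erythroid-like sum remains and is assumed to vary like the other classes. With total UMIs as the only scaling Pgk1 (0.01, 0.937) and Eno1 (0.17, 0.171) were not called, the median of all genes having moved from -0.07 to -0.37.

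**Figure D5:**
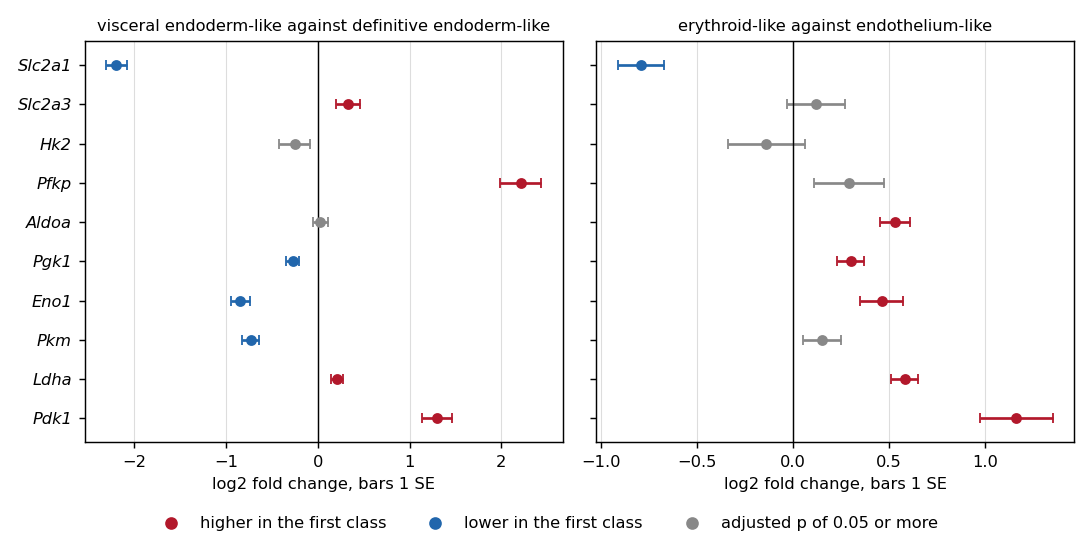
Log2 fold change of each member (vertical axis) between visceral endoderm-like and definitive endoderm-like cells (left) and between erythroid-like and endothelium-like cells (right), with bars of 1 SE. Red and blue points were higher and lower in the first class at an adjusted p under 0.05; Slc2a1 lay at -2.19 and Pfkp at 2.21 on the left, and Pdk1 at 1.16 on the right.

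Another 20 genes of glucose transport, glycolysis and lactate transport were read beside the members, and all 20 passed the filter on low counts. In visceral endoderm-like cells 5 of them were higher and 10 lower, where 37.0% and 35.5% of all genes were. Their median log2 fold change was -0.56 against -0.05 for all genes. Slc2a2, the transporter GLUT2 of liver and gut, was 186-fold higher (edgeR adjusted p = 2.37e-28; 281 ± 16.8 CPM against a mean of at most 4.4 in each other class). The lactate exporter Slc16a3 was 5.67-fold lower, at 17.8 ± 1.13 CPM, and Hk1 was 5.38-fold lower. In definitive endoderm-like cells 5 were higher and 6 lower, where 25.7% and 19.4% of all genes were. The higher ones were led by the monocarboxylate transporter Slc16a1 at 8.74-fold (805 ± 164 CPM, beside 849 ± 86.7 in visceral endoderm-like cells).

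In erythroid-like cells 9 of these 20 genes were higher and 5 lower, where 30.5% and 34.0% of all genes were. Their median was 0.25 against -0.14 for all genes. Pfkfb4, which makes the activator of phosphofructokinase, was 23.1-fold higher (31.6 ± 0.89 CPM; edgeR adjusted p = 5.99e-24), and Hk1, the hexokinase of red cells, 21.8-fold (58.8 ± 5.97; 7.08e-26). Ldhb, the other lactate dehydrogenase subunit, was 5.61-fold lower. Neural plate-like cells had 13 of the 20 higher and 3 lower, where 18.6% and 19.4% of all genes were. The median there was 0.36, and Ldhb was 2.22-fold higher. Caudal epiblast-like cells had 5 higher and 4 lower, where 15.1% and 15.3% of all genes were. Presomitic mesoderm-like cells had 4 and 9 (13.9% and 13.2% of all genes), and cardiac-like cells 8 and 1 (13.0% and 8.54%). Aldoc, the brain-type aldolase, was 4.29-fold higher in presomitic mesoderm-like cells, at 11.5 ± 2.8 CPM, beside 12.9 ± 3.46 in somitic and paraxial mesoderm-like cells.

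Of 11 genes of pyruvate entry into mitochondria, 10 were tested. In visceral endoderm-like cells 7 were higher and 2 lower, where 37.0% and 35.5% of all genes were (median log2 fold change 0.25, against -0.05 for all genes). Mpc2, a subunit of the pyruvate carrier, was 6.25-fold higher (163 ± 8.67 CPM, edgeR adjusted p = 1.47e-27) in this class, which had the highest Pdk1 mean. In erythroid-like cells 6 were higher and 2 lower, where 30.5% and 34.0% of all genes were, with Mpc1 4.06-fold higher. In presomitic mesoderm-like cells 1 was higher and 1 lower, where 13.9% and 13.2% of all genes were. Of 20 hypoxia-response genes outside glycolysis, 19 were tested. Visceral endoderm-like cells had 7 higher and 7 lower (median 0.05), where 37.0% and 35.5% of all genes were. Erythroid-like cells had 5 and 10 (median -0.32, 30.5% and 34.0% of all genes). Neural plate-like cells had 4 and 7 (18.6% and 19.4%), presomitic mesoderm-like cells 4 and 7 (13.9% and 13.2%), and definitive endoderm-like cells 3 and 8 (25.7% and 19.4%). Ddit4, a stress-induced inhibitor of mTOR, was 2.96-fold higher in neural plate-like and 7.16-fold lower in erythroid-like cells, whereas Ero1l was 2.66-fold higher in the latter and 2.88-fold in visceral endoderm-like cells. No direction was thus shared by this list as a whole. Of the Myc genes, Myc was 7.14-fold higher and Mycn 2.87-fold lower in erythroid-like cells, and both were lower in definitive endoderm-like cells. Of 6 proliferation genes, all 6 were higher in erythroid-like cells, where 30.5% of all genes were. All 6 were lower in left-right organizer-like and 5 in axial mesoderm-like cells (median -0.33), where 36.7% and 17.8% of all genes were called in either direction. In visceral endoderm-like cells 3 were lower and in definitive endoderm-like cells 2, where 35.5% and 19.4% of all genes were.

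Over the 14 class means, on the log2 scale, Aldoa and Ldha had a Pearson correlation of 0.95, Eno1 and Pkm of 0.93, Pgk1 and Ldha of 0.91 and Aldoa and Pgk1 of 0.90. Slc2a1 and Slc2a3 had 0.63, and Slc2a3 and Pgk1 -0.66. These are descriptions over 14 points that share embryos, libraries and scaling. Over the 41 sums and 14589 genes, the genes most like each member in level were Bcam (0.92) and Arl4c (0.83) for Slc2a1 and Prss8 and Cldn7 (0.94 each) for Slc2a3. For Pfkp they were Eif6 (0.88) and Srm (0.86), for Pdk1 Tlcd1 and Timm13 (0.82 each), and for Hk2 Nacc1 and Gm45184 (0.75 each). For the lower pathway they were Cct3 and Carnmt1 for Aldoa (0.90 each), Pfkl (0.91) and Lin28b (0.90) for Pgk1, Eno1b and Ddx39b (0.92 each) for Eno1, Dnajc9 (0.94) and Hnrnpa1 (0.93) for Pkm, and Ran and Rpl4 (0.91 each) for Ldha. Eno1b is the near-identical copy of Eno1, with 1.04% to 1.61% as many UMIs in each sum. Whether UMIs of Eno1 were counted as Eno1b was not tested.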

How the data were processed

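Single-cell 3′ RNA-seq (10x Genomics v3) was measured in 3 embryos, 1 library each. The authors deposited raw UMI counts per gene and barcode, with no normalization; the submitters' processing notes name Cell Ranger 3.1.0 and mm10. Depth was 191843539, 144790573 and 165506028 UMIs in the cells that passed (embryos 1, 2 and 3).

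Cells were kept at 1500 or more genes, at most 8500 (7500 in embryo 2), and 0.5% to 10% mitochondrial UMIs, which left out 573 barcodes under the minimum. Each cell was scored for marker lists without members (mean z-score of log counts per 10000 UMIs). A class needed a score of 0.5, a margin of 0.25 over the next list and 2 markers with a UMI; these limits were set after marker UMIs were seen, and 2489 cells lay within 0.1 of one. Each cell could enter only the class of its highest score, and a cell that missed any of these limits entered none. Scrublet itself called 1, 2 and 1 doublets and so did not work as a caller; leaving out the top 6% of its scores (1296 cells) was an alternative.

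Counts were summed per class and embryo where at least 10 cells were present, and tested with edgeR 4.0.16 in R 4.3.3 (TMM, filterByExpr, quasi-likelihood fit of all 14 classes, Benjamini-Hochberg adjustment over 14589 genes, threshold 0.05, two-sided). Sums of an embryo come from the same animal, so the embryo numbers pair them: deviations of same-numbered sums correlated at 0.0854 to 0.46 over 14 pairs. The main design had no embryo block and the block was an alternative; its value stands beside each result whose call it changed. Other alternatives were DESeq2 1.42.0 (Wald test, or its size factors in edgeR), no filter on low counts, each embryo left out, stricter marker limits, clusters (16, computed without pathway genes) in place of limits, cells thinned to 5000 UMIs, doublet scores, barcodes of low mitochondrial percent kept, only the classes compared in the fit, and total UMIs as the only scaling, which was added after the TMM factors were seen.

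On simulated data, the test for caudal epiblast against presomitic mesoderm (13528 genes) recovered 28% of changes of 0.5 and 73% of changes of 1.0 on the log2 scale. In these data all classes shared each gene's mean, and only a small random set of genes was changed in 1 class. In the real data 93.1% of genes differed among the classes, so the rates do not carry over to the tests of the members. The members, the gene lists and the rule for named genes were chosen with earlier results of these data known. Named were all members, and from each list per comparison up to 2 called genes of the largest positive and 2 of the largest negative fold change with the same sign in every embryo; of these the report prints a part, and a gene that the rule also names is not reported here. Levels of other genes in the lists are given as context. Likeness was the Pearson correlation of log2 levels over the 41 sums, with the 2 closest genes named. Promoters were read from RefSeq sequences of GRCm38 and coordinates from its annotation. The cited genotype and stage are those of the labels.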

Additional observations from a re-analysis of the deposited data

Results flagged for a closer look

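Members were also measured in barcodes that entered no comparison. In the barcodes under the mitochondrial minimum, the 10 members together reached 7598, 7308 and 6932 CPM in embryos 1, 2 and 3, far above the level that 3 UMIs would give. In the cells that no class took, they reached 7454, 7576 and 7038. Eno1b, the near-identical copy of Eno1, held 5509 UMIs in the class sums, and the second feature named Aldoa held 24. No class had enough embryos for a test of single outlying samples.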

How the results depend on the processing

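Of 190 log2 fold changes (10 members in 19 comparisons), from 167 of 190 (without embryo 2) to 188 of 190 kept their side of the threshold under each alternative. The count was 161 of 180 with clusters and 48 of 50 with only the compared classes in the fit. Those of them that were called also kept their direction. A sign that turned where neither fit made a call was counted as kept. The embryo as a replicate block added 20 calls and lost 0, and all calls it changed stand in the report. Where either fit made a call, the signs that turned with clusters in place of marker limits were Slc2a1 in allantois-like (0.04) and Slc2a3 in neural plate-like (0.35) and caudal epiblast-like cells (0.41). With total UMIs as the only scaling they were Aldoa (-0.23) and Ldha (-0.04) in visceral against definitive endoderm-like cells and Pkm in erythroid-like cells (-0.18). The number of members called moved as follows. With the replicate block it was 4 in somitic and paraxial mesoderm-like cells (2 without), 3 between caudal epiblast-like and neural plate-like cells (1) and 2 between presomitic and somitic mesoderm-like cells (1). With total UMIs as the only scaling it was 8 in allantois-like (5) and 4 in left-right organizer-like cells (7). With clusters it was 3 in allantois-like cells, 3 between caudal epiblast-like and neural plate-like and 4 between presomitic and somitic mesoderm-like cells; axial mesoderm had no cluster. Caudal epiblast-like against neural plate-like cells also gave 2 with thinned cells and 3 with the DESeq2 Wald test, and presomitic against somitic mesoderm-like cells 2 without a filter, with stricter limits and with low-mitochondrial barcodes kept. Leaving out 1 embryo gave 3 to 5 in caudal epiblast-like cells, 3 to 5 in mesenchyme-like cells, 0 to 1 between caudal epiblast-like and neural plate-like cells, 0 to 0 between presomitic and somitic mesoderm-like cells and 5 to 8 in visceral against definitive endoderm-like cells. Class means of the members stayed within 1.5 times of their value in 125 of 130 cases with clusters and 138 of 140 with thinned cells; beside those in the report, Slc2a1 moved from 226 to 343 CPM in allantois-like and from 186 to 107 in presomitic mesoderm-like cells with clusters, and Pdk1 from 17.3 to 7.86 in axial mesoderm-like cells with thinned cells. The causes were not tested. Thinned cells lost 10 calls and added 7, and total UMIs as the only scaling lost 10 and added 8. For a call lost under several settings, the report names only some of them. With 3 embryos (2 for erythroid-like cells), small fold changes rest on few samples. In the simulated data of caudal epiblast against neural plate, 23% of changes of 0.5 and 80% of changes of 1.0 on the log2 scale were recovered. There only a small set of genes differed between classes, unlike the real data, so these rates do not carry over to the members. Pfkp and Pdk1 were limited most by depth, with as few as 5 and 15 UMIs in a sum.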
